A study of Homo sapiens with 8 samples.

Results

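The miR-33 family consists of 2 hairpins, miR-33a and miR-33b, and both arms of each were measured, so the family is 4 of the 594 mature miRNAs in the data. The 4 arms were taken by name, and the family was chosen by the levels of miR-33a-5p, within 2-fold of wild type in cells with the Dicer substitution S1344L, and of miR-33b-3p, higher in those cells. All values of the 4 arms that set S1344L cells against wild type are therefore given as a description, without a test. Small RNAs were sequenced from H1 cells, an established human embryonic stem cell line, in 4 genotypes with 2 libraries each. The genotypes were homozygous for S1344L, hemizygous for S1344L, Dicer-null and wild type. The edited lines were made with CRISPR-Cas9, and the labels do not say how many clones stand behind a genotype. The labels call the RNA samples biologically independent, without saying what was grown separately.

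Dicer cuts a precursor hairpin into a short duplex of a 5p and a 3p arm. Its RNase IIIb domain cuts the 5p side and its RNase IIIa domain the 3p side, and usually 1 arm is kept as the guide while the other is degraded. miR-33a and miR-33b lie inside introns of SREBF2 and SREBF1, which encode the SREBP transcription factors for cholesterol synthesis and uptake and for fatty acid synthesis. Their 5p guides are known to repress the cholesterol exporter ABCA1 and genes of fatty acid oxidation, and their 3p arms are normally the minor strands. Mice carry miR-33a but lack miR-33b.

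The mature sequences, from RefSeq on GRCh38.p14, show which arms share a seed (bases 2 to 8, in capitals), the stretch that pairs with targets.
miR-33a-5p: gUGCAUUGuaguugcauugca
miR-33b-5p: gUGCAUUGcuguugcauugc
miR-33a-3p: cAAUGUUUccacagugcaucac
miR-33b-3p: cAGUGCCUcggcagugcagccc
The 5p arms have 1 seed in common. Counted from 1 at the 5′ end, miR-33b-5p differs from miR-33a-5p over their 20 shared positions only by U9C and A10U, just after the seed, and it lacks the last base of miR-33a-5p. The 3p arms match at 15 of 22 positions, and 3 of their 7 differences, A3G, U6C and U7C, lie in the seed, so these arms do not have a common seed. Of 533 measured miRNAs with a RefSeq sequence, 0 outside the family carried the 5p seed or the seed of miR-33a-3p, whereas miR-515-3p and miR-519e-3p carried the seed of miR-33b-3p.
miR-515-3p: gAGUGCCUucuuuuggagcguu
miR-519e-3p: aAGUGCCUccuuuuagaguguu

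The hairpins, with both arms in capitals, show how different the stems around these arms are.
miR-33a hairpin: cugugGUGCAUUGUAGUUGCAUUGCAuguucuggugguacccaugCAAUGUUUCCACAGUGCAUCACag
miR-33b hairpin: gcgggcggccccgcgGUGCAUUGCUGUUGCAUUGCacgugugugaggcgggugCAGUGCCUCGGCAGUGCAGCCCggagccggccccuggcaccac
The miR-33a hairpin lies at chr22:41900944-41901012 on the plus strand (69 bases), and the miR-33b hairpin at chr17:17813836-17813931 on the minus strand (96 bases). In GENCODE 29, also on GRCh38, each hairpin was intronic in every coding transcript that spans it, 3 of SREBF2 and 5 of SREBF1, on the strand of its host. In SREBF2-201 and SREBF1-201 both sit in intron 16 of 18, the SREBF2 intron being 2471 bases long and the SREBF1 intron 475 bases. The arms are separated by 19 bases in miR-33a and 18 in miR-33b. Bases G and C make up 47.8% of the miR-33a hairpin and 72.9% of the miR-33b hairpin, and 42.9% of miR-33a-5p, 50% of miR-33b-5p, 45.5% of miR-33a-3p and 72.7% of miR-33b-3p.

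Values are RPM, reads per 1000000 of a denominator that differs from library to library in the deposited values, with 0.5 of a read added. The libraries held between 137655 and 2725756 miRNA reads, fewest in Dicer-null cells, and the miRNA reads were 0.118 and 0.183 times the denominator in the null libraries and 2.09 and 2.33 times in the wild-type ones. Hemizygous replicate 1 stood apart at 0.729 times, against 2.42 times in replicate 2, and the hemizygous values of the 4 arms are therefore given per library. The 8 listed miRNAs of the clusters that mark pluripotent cells made up 48.7% to 49.7% of reads in homozygous, 50.3% to 51.6% in hemizygous, 45.6% to 52.3% in null and 38.0% to 39.7% in wild-type libraries, with all 8 measured. Of the fibroblast markers 6 of 8 were measured, and they held 0.534% to 0.587%, 0.386% to 0.568%, 1.08% to 1.14% and 1.15% to 1.38% of reads in homozygous, hemizygous, null and wild-type libraries, with miR-143-3p at 0 reads in both null libraries. The 5 neural markers held at most 1.66% and the 5 measured of 6 blood markers at most 0.177% of reads in any library, and the hepatocyte marker miR-122-5p was not analysed here. The part of these cells in the results below was not tested.

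miR-33a-5p, the main miR-33 guide, was by far the most abundant arm, and its homozygous S1344L and wild-type values overlapped. It had 9665 and 8890 RPM (9124 and 7394 reads) in homozygous cells, 2898 and 10167 RPM in hemizygous cells, 411 and 883 RPM in null cells and 7616 and 9310 RPM in wild-type cells. The homozygous and wild-type libraries overlapped, the hemizygous libraries lay on both sides of them, and the null libraries lay below all others. The change from wild type was 0.14 ± 0.83 on the log2 scale in homozygous cells and -0.63 ± 0.83 in hemizygous cells (SE, n = 2 per group). Each SE of a level rests on a spread shared by miRNAs of like abundance and pooled over all 4 genotypes, not on the replicates of that arm alone. Without hemizygous replicate 1 the hemizygous change was 0.27, and without replicate 2 it was -1.54. By the 2-fold limit used in the choice (1 on the log2 scale), the mean of each genotype was inside it and hemizygous replicate 1 taken alone was outside it. The scaling of the libraries mattered for this limit. With upper-quartile scaling the changes of miR-33a-5p were 1.04 in homozygous and 1.19 in hemizygous cells, past 2-fold, while the medians over all miRNAs were 0.82 and 0.84. With each library scaled to its own miRNA reads they were 0.08 and 0.10.

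**Figure D1:**
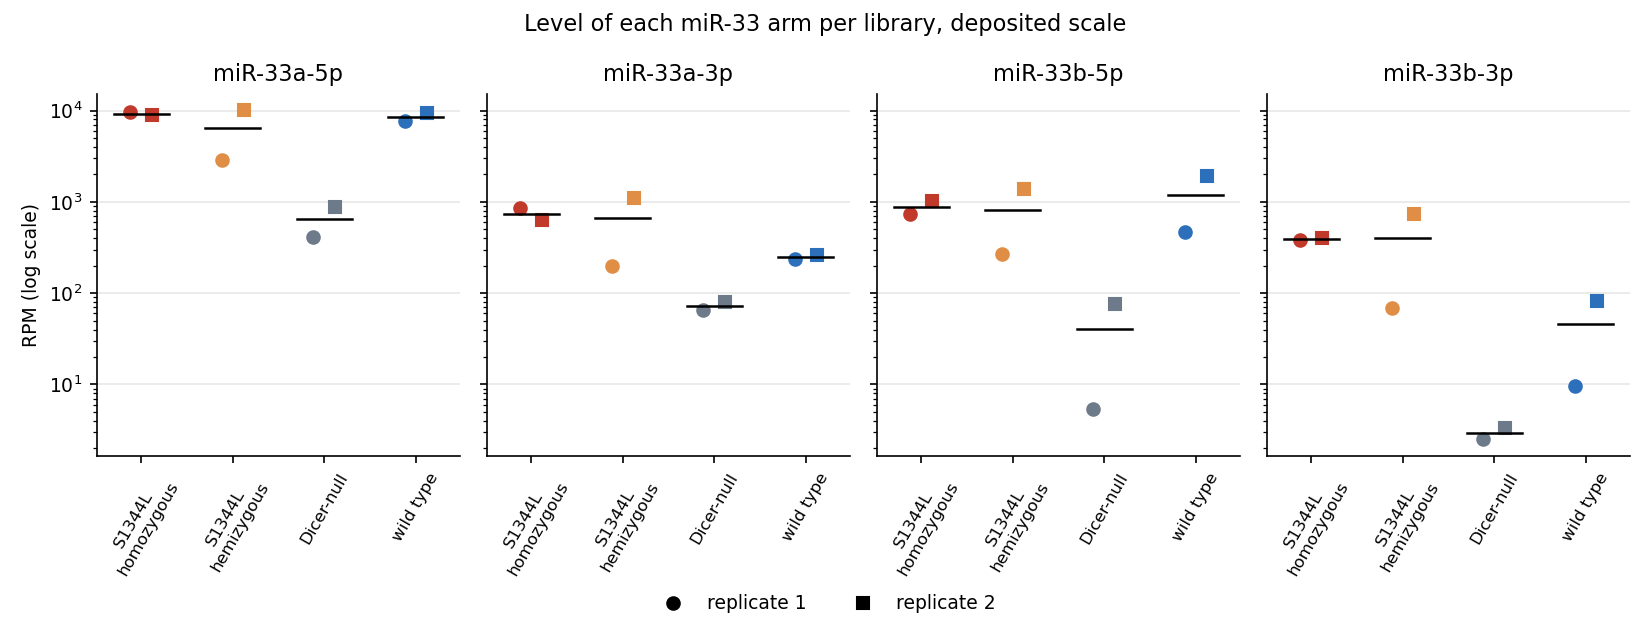
RPM of each miR-33 arm (vertical axis, log scale) in the 8 libraries, by genotype; circles are replicate 1, squares replicate 2 and bars the mean of 2 libraries. miR-33a-5p overlaps between homozygous and wild-type cells on the deposited scale, the 3p arms are higher in both homozygous than in both wild-type libraries, and the miR-33b arms differ between the wild-type replicates.

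miR-33b-5p, the guide with the same seed, was far less abundant than miR-33a-5p, and its S1344L and wild-type values also overlapped. It had 735 and 1022 RPM in homozygous cells, 269 and 1369 RPM in hemizygous cells, 5.36 and 75.2 RPM in null cells, and 473 and 1916 RPM in wild-type cells. The S1344L libraries lay within the wild-type range except for hemizygous replicate 1, but that range was wide. The changes were -0.14 ± 0.94 in homozygous and -0.65 ± 0.94 in hemizygous cells (log2 ± SE), with 0.52 in hemizygous cells without replicate 1. The homozygous change turned to 0.87 without wild-type replicate 2 and to 0.10 without homozygous replicate 1, and it was -1.14 without wild-type replicate 1. It was also above 0 with median-ratio (0.28), upper-quartile (0.77) and quantile (0.72) scaling, so these data give it no direction.

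Most 5p arms were lower in the same comparison. Among all 227 5p arms the median change was -2.25 in homozygous and -2.93 in hemizygous cells, and 62 and 41 of them stayed within 2-fold. Ordered from the highest change down, miR-33a-5p and miR-33b-5p were 28th and 41st of the 227 in homozygous cells, and 28th and 33rd in hemizygous cells. These ranks describe values that took part in the choice of the family.

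The shared 5p seed came mostly from miR-33a. The summed level of the 5p arms was 10156 ± 345 RPM in homozygous, 7351 ± 5917 RPM in hemizygous (3167 and 11535 RPM in the 2 libraries), 687 ± 384 RPM in null and 9658 ± 2218 RPM in wild-type cells (SD, n = 2). miR-33a-5p gave 92.9% and 89.7% of this pool in the homozygous libraries, 91.5% and 88.1% in the hemizygous, 98.8% and 92.2% in the null, and 94.2% and 82.9% in the wild-type. Its share in each S1344L library lay between the wild-type values, and the 95% Wilson intervals of the wild-type libraries, 93.7% to 94.6% and 82.3% to 83.6%, did not overlap. All such intervals reflect counting error alone, because no molecular identifiers are named.

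miR-33b-3p, the minor strand of miR-33b, was the arm of the family with the largest change in S1344L cells, upward under each of the 5 scalings. It had 386 and 406 RPM (364 and 337 reads) in homozygous cells, 68.1 and 729 RPM (93 and 551 reads) in hemizygous cells, 2.50 and 3.33 RPM (3 and 2 reads) in null cells and 9.73 and 81.7 RPM (12 and 95 reads) in wild-type cells. Both homozygous libraries lay above both wild-type libraries, while hemizygous replicate 1 lay inside the wild-type range. The change was 3.74 ± 1.00 in homozygous and 2.91 ± 1.00 in hemizygous cells (log2 ± SE). The SD of its own log2 values was 0.05 in homozygous, 2.40 in hemizygous and 2.08 in wild-type cells. The homozygous change was 2.26 without wild-type replicate 1 and 5.21 without wild-type replicate 2, and the hemizygous change was 4.61 without hemizygous replicate 1 and 1.21 without replicate 2. Its homozygous change was the 6th highest of the 300 3p arms, whose median was 0.68, and its hemizygous change the 8th highest, against a median of -0.18.

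miR-33a-3p was also higher in homozygous cells, by less than miR-33b-3p, and its wild-type replicates were close together. It had 860 and 627 RPM in homozygous cells, 199 and 1118 RPM in hemizygous cells, 65.4 and 79.2 RPM in null cells, and 235 and 265 RPM in wild-type cells. The homozygous libraries were above the wild-type ones, and the hemizygous libraries lay to both sides of them. The change was 1.55 ± 0.95 in homozygous and 0.92 ± 0.95 in hemizygous cells (log2 ± SE). It was 2.16 in hemizygous cells without replicate 1 and -0.33 without replicate 2. With the other scalings it was 1.49 to 2.44 in homozygous and 1.64 to 2.73 in hemizygous cells. In homozygous cells it was 83rd from the top among the 300 3p arms.

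**Figure D2:**
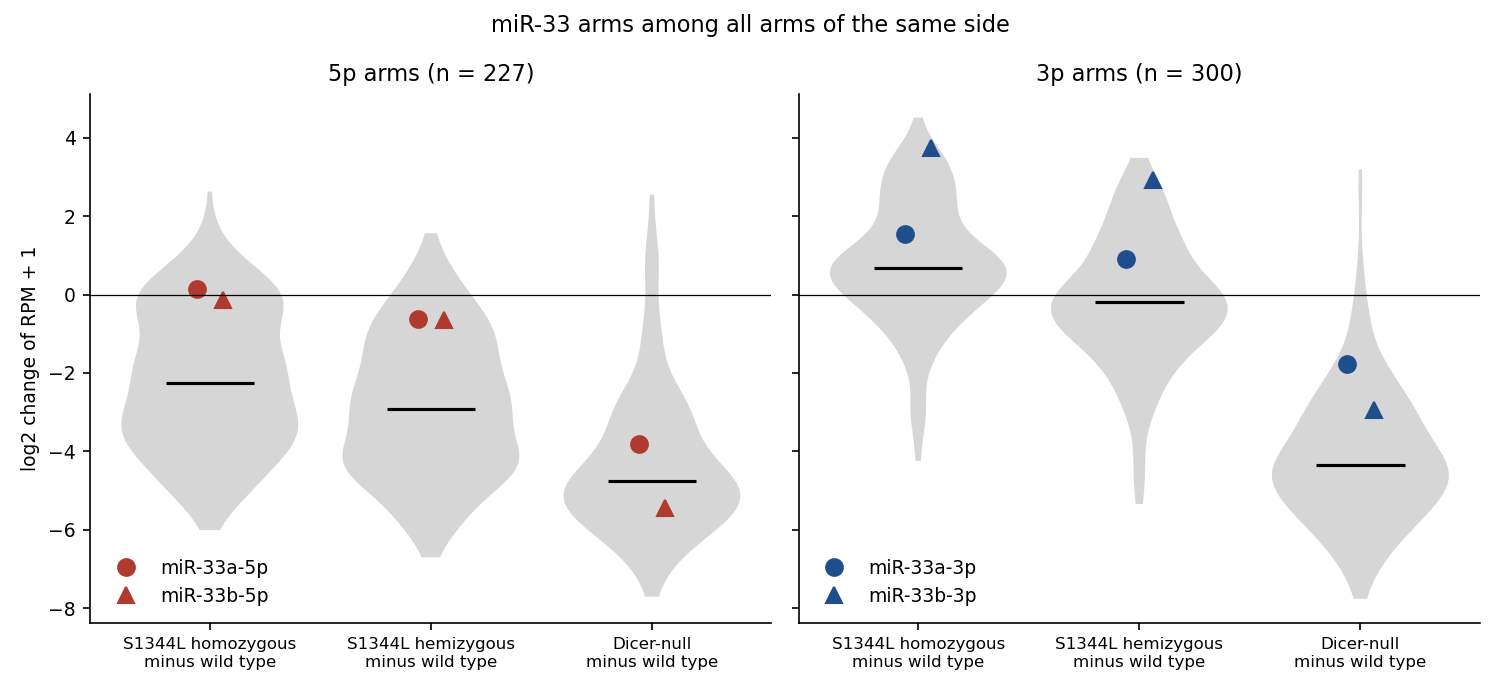
log2 change of RPM + 1 from wild type for the miR-33 arms (points) over the distribution of all 227 5p arms (left) and all 300 3p arms (right), with the median as a black bar. In both S1344L genotypes the miR-33 5p arms lie above the median of the 5p arms and miR-33b-3p lies near the top of the 3p arms.

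In homozygous cells 3p reads made up 8.16% and 6.58% of the miR-33a reads, in hemizygous cells 6.40% and 9.90%, in null cells 13.7% and 8.17%, and in wild-type cells 2.99% and 2.76%. All 6 edited libraries lay above both wild-type libraries, hemizygous replicate 1 included. On the log2 3p/5p scale the change of miR-33a was 1.42 ± 0.54 in homozygous and 1.55 ± 0.54 in hemizygous cells, and 1.89 in hemizygous cells without replicate 1. The miR-33a guide still outnumbered its 3p arm by 11.2 and 14.2 times in homozygous libraries and by 14.6 and 9.10 times in hemizygous ones, against 32.4 and 35.2 times in wild-type libraries.

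The ratio of miR-33b differed more. Its 3p share was 34.4% and 28.4% in homozygous cells (of 1057 and 1187 reads), 20.2% and 34.7% in hemizygous cells (of 461 and 1586), 30.0% and 3.45% in null cells (of 10 and 58), and 1.94% and 4.07% in wild-type cells (of 619 and 2334). The homozygous and hemizygous shares lay far above the wild-type ones, a difference tied to the choice of the family and not tested. The Wilson interval of null replicate 1, for counting error alone, ran from 10.8% to 60.3%. The log2 3p/5p ratio changed by 3.87 ± 0.82 in homozygous and 3.56 ± 0.82 in hemizygous cells. The change in homozygous cells was between 3.41 and 4.34 with any 1 library left out, a smaller range than for the level of miR-33b-3p. The 5p arm was still the more frequent arm in every S1344L library.

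The median ratio change over all 186 hairpins with both arms was 3.29 in homozygous and 2.87 in hemizygous cells. With limma 79% of hairpins were called toward 3p and 1.08% toward 5p in homozygous cells, and 77.4% and 2.15% in hemizygous cells, figures that stand here as background only. From the largest shift toward 3p, miR-33b was 69th and miR-33a 148th of 186 in homozygous cells, and they were 70th and 138th in hemizygous cells. Both miR-33 ratios thus differed from wild type in the direction of most hairpins, miR-33a by less than their median and miR-33b by more.

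**Figure D3:**
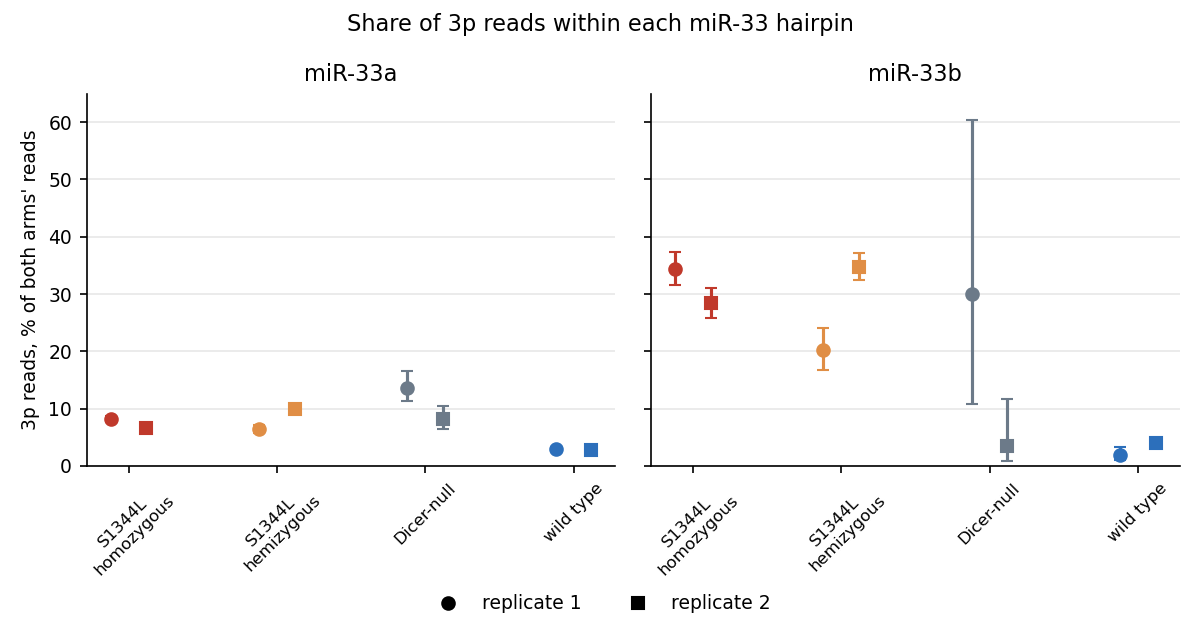
3p reads as a percentage of both arms' reads in each library for miR-33a (left) and miR-33b (right), with 95% Wilson intervals. miR-33a stays under 14% everywhere, whereas miR-33b reaches 20.2% to 34.7% in the 4 S1344L libraries against 1.94% and 4.07% in wild type.

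Dicer-null cells were not used to choose the family, so the 4 arms could be tested there, in 1 limma model over all 594 miRNAs with p-values adjusted by the Benjamini-Hochberg method. The wild-type libraries are the same ones that the S1344L values are set against. On the deposited scale 3 of the 4 arms were called lower. miR-33a-5p was at 647 ± 334 RPM in null and 8463 ± 1198 RPM in wild-type cells (log2 change -3.80 ± 0.83 SE, limma adjusted p = 9.95e-06), and miR-33b-5p at 40.3 ± 49.4 RPM in null and 1195 ± 1020.4 RPM in wild-type cells (-5.44 ± 0.94, limma adjusted p = 3.75e-08; RPM as mean ± SD, n = 2). miR-33b-3p fell by 2.94 ± 1.00 (limma adjusted p = 0.00436), and miR-33a-3p was at -1.78 ± 0.95 (limma adjusted p = 0.0684), which did not pass. All 4 SEs and p-values use a spread shared by miRNAs of like abundance and pooled over all 4 genotypes. The hemizygous replicates, outside this comparison, enter that spread with a median gap of 1.93 (log2), against 0.80 in null and 0.23 in wild-type cells. The SD of the log2 values in null and wild-type cells was 0.78 and 0.20 for miR-33a-5p and 2.53 and 1.43 for miR-33b-5p. It was 0.22 and 2.08 for miR-33b-3p and 0.19 and 0.12 for miR-33a-3p, whose null libraries both lay below the wild-type ones. miR-33a-3p passed when only the 4 libraries compared were fitted. In this comparison 87.2% of all miRNAs were called lower and 1.35% higher, so 3 calls of 4 are near the background.

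miR-33b-5p was at -3.65 without null replicate 1 and at -7.23 without null replicate 2, and stayed called in both. For miR-33b-3p the null libraries held only 5 reads in all against 107 in the wild-type libraries. The ratio of the summed reads per denominator was 0.0533, with an exact 95% counting interval of 0.0170 to 0.128. The call for miR-33b-3p was lost without wild-type replicate 2, where the change was -1.46 (limma adjusted p = 0.339). Fewer cells and less RNA per cell cannot be told apart in such bulk samples.

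These falls rest on the deposited scale. The median change of all miRNAs in null cells was -4.49, and miR-33a-5p, less negative than that, was 70th from the top of the 227 5p arms. As a share of all miRNA reads, miR-33a-5p was 0.398% and 0.407% in homozygous, 0.398% and 0.420% in hemizygous, 0.347% and 0.482% in null and 0.365% and 0.399% in wild-type libraries. This share lay in a narrow range over all 8 libraries, and the null and wild-type groups overlapped. With each library scaled to its own miRNA reads, the null change of miR-33a-5p was 0.10 (limma adjusted p = 0.656) with a median of -0.84 over all miRNAs. On that scale miR-33a-3p rose by 2.10 (limma adjusted p = 0.00114), miR-33b-5p was at -1.65 (limma adjusted p = 0.171) and miR-33b-3p at 0.53 (limma adjusted p = 0.608). Median-ratio, upper-quartile and quantile scaling also turned the direction of miR-33a-5p, miR-33a-3p and miR-33b-3p, but not that of miR-33b-5p. With these scalings miR-33a-5p was higher in null than in wild-type cells by 0.55 to 1.19 (limma adjusted p from 0.00142 to 0.0135), and miR-33a-3p by 2.71 to 3.18. Each of the 4 other scalings sets the libraries to a common miRNA total, median, quartile or distribution. None of them can therefore show a loss shared by most miRNAs, and their changes are relative to the other miRNAs of a library. Of all called miRNAs 1.52% were higher in null cells on the deposited scale and 23.2% to 63.1% with the other scalings.

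**Figure D4:**
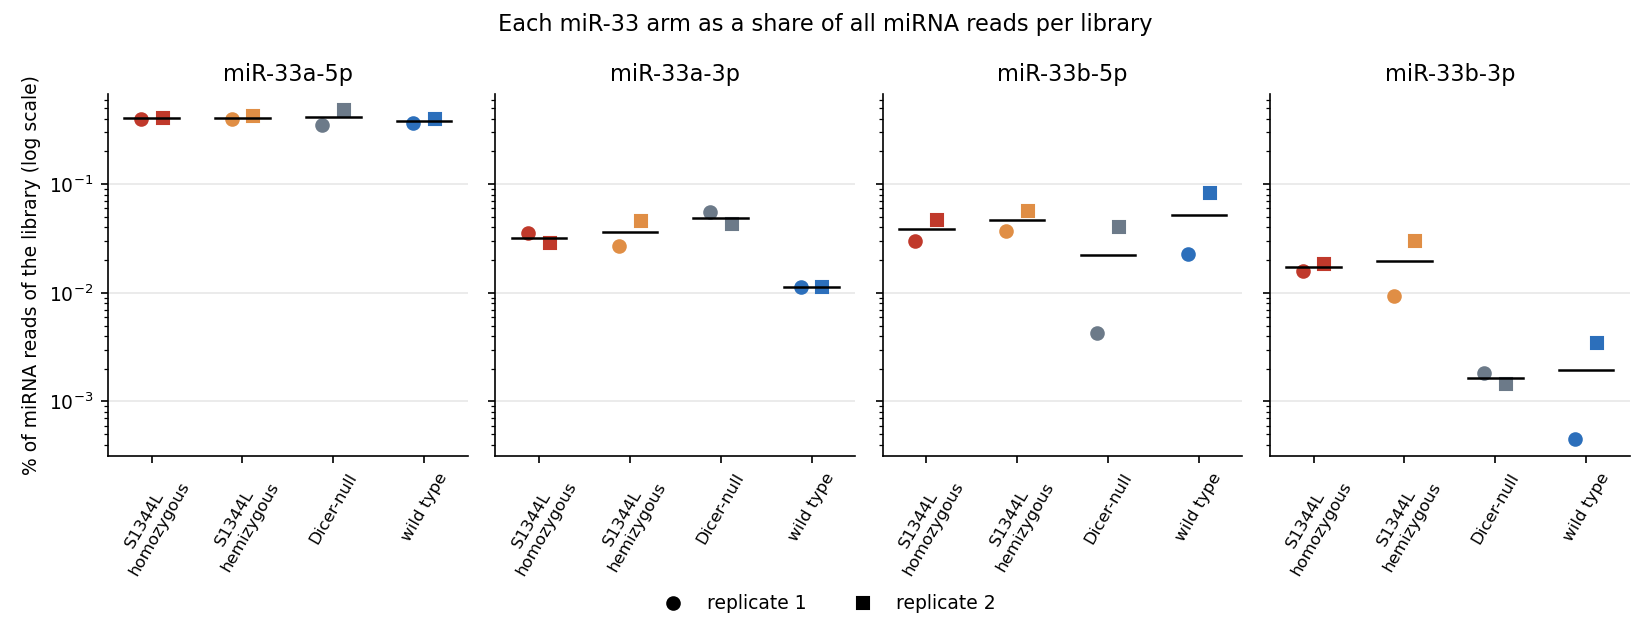
Each miR-33 arm as a percentage of all miRNA reads of its library (vertical axis, log scale), by genotype; circles are replicate 1, squares replicate 2 and bars the mean. miR-33a-5p lies between 0.347% and 0.482% in all 8 libraries, whereas both 3p arms are higher in S1344L than in wild-type libraries.

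The arm ratio of miR-33a also moved toward 3p in null cells. It changed by 2.02 ± 0.54 on the log2 3p/5p scale (mean ratio -3.05 in null and -5.07 in wild-type cells; limma adjusted p = 0.00778 over 186 hairpins). The call held under each other scaling, pseudocount, filter and model tried, and the change was 1.61 to 2.44 with any 1 library left out. A library's scale factor cancels from a ratio except through the pseudocount. Scaling to own miRNA reads, by median ratio or by upper quartile could therefore hardly change this call. Leaving out the filter could not change it, because every miRNA passed. For miR-33b the pseudocount weighs more, because miR-33b-3p was at only 2.50 and 3.33 RPM in the null libraries. The miR-33b ratio was at 2.50 ± 0.82 (limma adjusted p = 0.0238), but its call was lost under each of the 4 other scalings. It was also lost without null replicate 1, where the change was 0.86 (limma adjusted p = 0.284), and without wild-type replicate 1, where it was 2.04 (limma adjusted p = 0.174). In this comparison limma called 27.4% of hairpins toward 3p and 18.3% toward 5p, and the median change was 0.27.

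**Figure D5:**
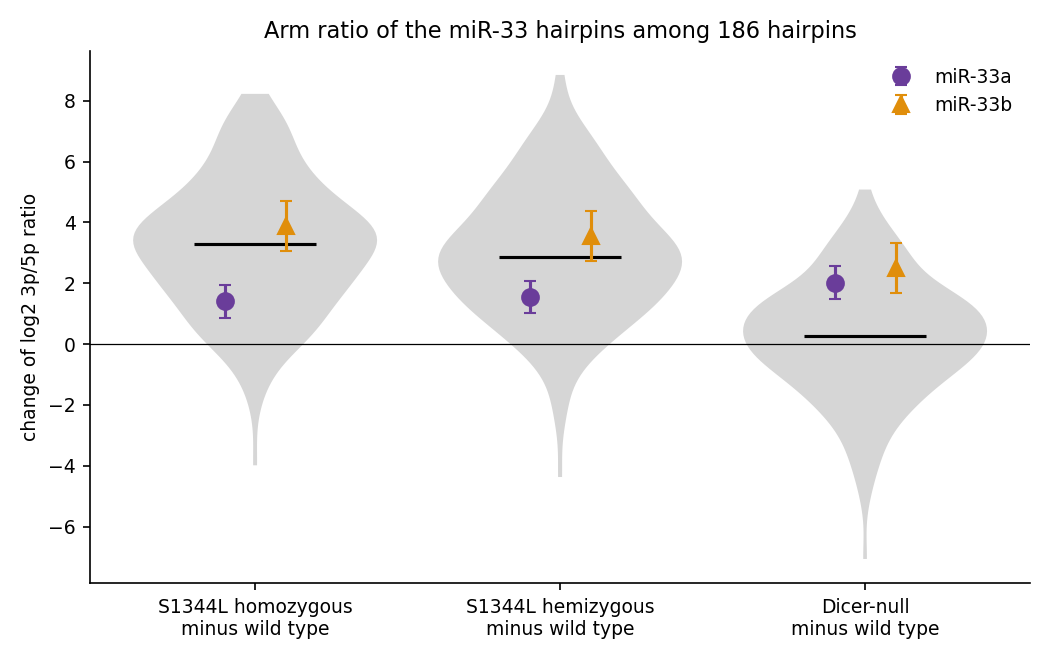
Change of the log2 3p/5p ratio from wild type for miR-33a (circles) and miR-33b (triangles), with standard errors, over the distribution of 186 hairpins; black bars are medians. In S1344L cells miR-33a lies below the median and miR-33b slightly above it, and in null cells both lie above the median.

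In wild-type cells the miR-33b arms varied far more between replicates than the miR-33a arms. Replicate 2 over replicate 1 was 4.04 times for miR-33b-5p and 7.71 times for miR-33b-3p in wild-type cells, against 1.22 and 1.13 times for miR-33a-5p and miR-33a-3p. Only 3 of the 594 miRNAs had a larger gap between the wild-type replicates than miR-33b-3p, and 26 a larger one than miR-33b-5p. In null cells miR-33b-5p, with 7 and 56 reads, had the largest gap of all 594 miRNAs. In homozygous cells the gaps were smaller, 1.39 times for miR-33b-5p and 1.05 times for miR-33b-3p. In hemizygous cells they were 5.08 times for miR-33b-5p and 10.6 times for miR-33b-3p, with 18 of the 594 miRNAs having a larger gap than miR-33b-3p, but replicate 2 was higher there for most miRNAs (median gap 1.93 on the log2 scale). Across 533 miRNAs with a sequence, the share of G and C had a Spearman rho of -0.05 with the wild-type gap and 0.30 with the null gap. With the hemizygous gap rho was -0.17 and with the homozygous gap 0.02. Each rho is a description across miRNAs that share the same 2 libraries.

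By Pearson correlation of log2(RPM + 1) over the 8 libraries, among 493 miRNAs with a mean of at least 50 RPM in a genotype, miR-33a-5p was most like miR-651-5p, miR-221-3p and miR-141-3p (r = 0.999 for each). miR-33b-5p was most like miR-1249-3p (r = 0.977), miR-367-3p (0.971) and miR-525-3p (0.969), with miR-33a-5p in 8th place at 0.962. Among the minor strands, miR-33a-3p was most like miR-671-3p (0.989), miR-499a-3p (0.986) and miR-34b-3p (0.980), and miR-33b-3p most like miR-96-3p (0.983), miR-30d-3p (0.978) and miR-16-2-3p (0.974). Each 5p arm was closer to the other 5p arm (r = 0.962) than to its own 3p arm (0.880 in miR-33a and 0.793 in miR-33b), and the 3p arms correlated at 0.951. For miR-33a-5p, however, miR-33b-5p was only in 175th place among the 493. The libraries that chose the family are among these 8, so the split between 5p and 3p arms is not independent of the choice. These values share the libraries and their scale, and the medians over the 493 miRNAs were 0.915, 0.871, 0.807 and 0.728 for miR-33a-5p, miR-33b-5p, miR-33a-3p and miR-33b-3p.

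The carriers of the miR-33b-3p seed were far more abundant than miR-33b-3p itself. miR-515-3p had 11013 ± 212 RPM in homozygous, 7705 ± 5908 RPM in hemizygous (3527 and 11882 RPM), 87.3 ± 41.2 RPM in null and 4132 ± 262 RPM in wild-type cells. miR-519e-3p had 5166 ± 617 RPM in homozygous, 3478 ± 2480 RPM in hemizygous (1724 and 5231 RPM), 18.3 ± 7.12 RPM in null and 686 ± 13.1 RPM in wild-type cells (SD, n = 2). miR-33b-3p, at 396 ± 13.9 RPM in homozygous cells and 45.7 ± 50.9 RPM in wild-type cells, was thus the least abundant measured carrier of that seed in each of these genotypes.

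Of 44 other listed miRNAs known to act on cholesterol and lipid genes 36 were measured, 19 of them 5p arms and 16 of them 3p arms, and in S1344L cells most of these 5p arms fell. In homozygous cells 16 fell and 0 rose (limma adjusted p under 0.05; 22.2% of all miRNAs were called lower and 9.93% higher), with a median of -1.77 against -0.04 over all miRNAs. In hemizygous cells 21 fell and 0 rose (30.6% called lower and 4.04% higher), with a median of -2.84 against -0.89. By arm, 15 of the 19 listed 5p miRNAs and 1 of the 16 3p miRNAs fell in homozygous cells, and 16 of 19 and 4 of 16 in hemizygous cells. Over all miRNAs, 48.9% of the 227 5p arms and 4.33% of the 300 3p arms were called lower in homozygous cells, and 60.8% and 9.67% in hemizygous cells, and no difference between the list and these shares was tested. In null cells all 36 fell, with a median of -5.28 against -4.49 over all miRNAs, of which 87.2% were called lower. The homozygous count was 3 without homozygous replicate 2, 9 without homozygous replicate 1, 8 without wild-type replicate 1 and 6 without wild-type replicate 2, where the genotype left with 1 library is assumed to vary like the others. On the deposited scale with only the 4 libraries compared, 24 fell and 4 rose in homozygous cells, and 15 and 0 in hemizygous cells. With array weights, also on that scale, 25 fell and 4 rose in homozygous cells, and 17 and 0 in hemizygous cells. With the other scalings 19 to 23 fell and 4 to 8 rose in homozygous cells. In hemizygous cells 20 to 25 fell and 3 to 6 rose, and in null cells 14 to 27 fell and 1 to 7 rose. Of all called miRNAs 30.9% were higher in homozygous cells on the deposited scale and 36.1% to 62.9% with the other scalings. In hemizygous cells they were 11.7% and 34.6% to 62.5%.

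The abundant miRNAs of this list differed by arm. miR-302a-3p, of the pluripotency cluster, was at 0.67 ± 0.70 in homozygous and 0.05 ± 0.70 in hemizygous cells, and miR-19b-3p, of the miR-17-92 cluster, at 0.69 ± 0.75 and -0.11 ± 0.75 (log2 ± SE), none of which passed. Of the miR-17-92 cluster too, miR-17-5p fell by 2.61 in homozygous and 3.41 in hemizygous cells, and miR-20a-5p fell by 2.93 and 3.65 (limma adjusted p from 6.23e-05 to 0.00618). The arms miR-19b-1-5p and miR-19b-2-5p, named for separate hairpins, had 1297 and 239 RPM in wild-type cells. The reads of miR-19b-3p can therefore not all be placed in the miR-17-92 transcript. Of the called members, miR-34a-5p, a p53 target, had the largest fall in homozygous cells (-5.17 ± 0.96, limma adjusted p = 8.36e-06). In hemizygous cells it was miR-185-5p, which acts on SREBF2 and the LDL receptor (-6.06 ± 1.00, limma adjusted p = 1.79e-07), and in null cells miR-301b-3p (-7.64 ± 0.96, limma adjusted p = 6.75e-13).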

How the data were processed

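Small RNA libraries were made from total RNA with commercial spike-ins, per the labels' protocols. The submitters' processing notes name cutadapt, limma and hg38; the aligner, the counting and the denominators are not described. Per the values, the authors deposited log2 RPM with 0.5 of a read added; whole reads were recovered from the steps between values (largest distance from a whole number 7.31e-09). A read was worth 0.715 to 1.33 RPM, and a count of 0 allows 3 reads, or 2.14 to 3.99 RPM.

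RPM was modelled as log2(RPM + 1) with limma 3.58.1 (R 4.3.3), as group means over all 8 libraries with a variance trend, two-sided, at an adjusted p under 0.05. All 594 miRNAs passed a filter of 5 RPM in 2 libraries, the 4 arms included. For levels the prior was infinite, so that miRNAs of like abundance share 1 spread. Arm ratios were fitted likewise over 186 hairpins. An exact permutation of 2 against 2 libraries cannot go below p = 0.333. The fit was tested on simulated data. Other scalings, pseudocounts, filters, models and left-out libraries were tried.

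The members and lists were chosen with earlier results of these data known. Named miRNAs are the 4 arms, the 3 most like each and, of the lipid list, the 4 most abundant in wild type and the largest called change in each direction; miR-515-3p and miR-519e-3p were added for their seed, after it was seen. Sequences are from RefSeq (GRCh38.p14) and introns from GENCODE 29.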

Additional observations from a re-analysis of the deposited data

How the results depend on the processing

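In null cells, the changes with own-read, median-ratio, upper-quartile and quantile scaling were 0.10, 0.71, 1.19 and 0.55 for miR-33a-5p, 2.10, 2.71, 3.18 and 2.997 for miR-33a-3p, 0.53, 1.09, 1.51 and 0.49 for miR-33b-3p, all opposite to the deposited scale, and -1.65, -1.04, -0.57 and -0.80 for miR-33b-5p, no longer called. On those scales the miR-33b ratio, at 2.18, 2.13, 2.08 and 1.29, was not called, nor was it, at 2.50, with an adjusted p under 0.01. The miR-33a-3p change of -1.78 passed with only the 4 libraries compared (limma adjusted p = 0.0124) and with array weights (0.00388). Without the variance trend, with voom weights and with other pseudocounts or filters, no call of a null level or ratio changed.

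In homozygous cells miR-33a-5p was at 0.55 (median-ratio) and 1.04 (upper-quartile), and miR-33a-3p at 1.96, 2.44 and 2.31 (quantile); in hemizygous cells they were at 0.68 and 1.19, and at 2.73 (upper-quartile). The miR-33a ratio was at 1.98 in homozygous and 2.10 in hemizygous cells with quantile scaling.

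Counts of called miRNAs with own-read, median-ratio, upper-quartile and quantile scaling were 345, 288, 263 and 266 in null (526 on the deposited scale), 313, 359, 404 and 354 in homozygous (191), and 312, 363, 408 and 348 in hemizygous cells (206). With the 4 libraries compared and with array weights they were 372 and 384 in homozygous and 109 and 120 in hemizygous cells. The lipid list had 20, 21 and 21 calls in null cells with median-ratio, upper-quartile and quantile scaling, and in homozygous cells 27, 26 and 27 with own-read, median-ratio and upper-quartile scaling, 28 with 4 libraries and 29 with array weights. Null ratio calls (85) were 50 with quantile scaling and 53 with an adjusted p under 0.01.

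With 1 library left out, the null changes ranged from -4.36 to -3.25 (miR-33a-5p), -1.92 to -1.64 (miR-33a-3p), -7.23 to -3.65 (miR-33b-5p), -4.41 to -1.46 (miR-33b-3p), 1.61 to 2.44 (miR-33a ratio) and 0.86 to 4.14 (miR-33b ratio). miR-33a-3p passed without hemizygous replicate 1 (limma adjusted p = 0.00224) or 2 (0.00239). Calls ranged from 449 to 547 in null, 36 to 288 in homozygous and 111 to 370 in hemizygous cells, from 48 to 99 for null ratios, and from 3 to 21 and 15 to 31 for the lipid list in homozygous and hemizygous cells.

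Same-numbered libraries deviated together in hemizygous and wild-type cells (r = 0.62 across miRNAs) but not in the other pairs of genotypes (r = -0.11 to 0.10), and the labels do not say that a number is shared, so the libraries were not paired. With a replicate block, calls were 529 in null, 206 in homozygous and 230 in hemizygous cells and 102 for null ratios, and no call of a member changed. That block is common to all genotypes, so it cannot capture a deviation shared by hemizygous and wild-type libraries only. For miR-33b-3p, replicate 2 was above replicate 1 by 3.40 in hemizygous and 2.95 in wild-type cells (log2). Whether these gaps have a common source was not tested. Depth limits the null miR-33b arms most, with 10 and 58 reads per library.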
